A study of Mus musculus with 4 samples.

Results

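Expression of 9 CXC chemokine genes was followed in stromal vascular cells of brown fat from mice, the cells other than adipocytes that are left when the tissue is digested. The genes were taken by symbol: Cxcl1, Cxcl2, Cxcl5, Cxcl9, Cxcl10, Cxcl12, Cxcl13, Cxcl14 and Cxcl16, which are 9 of the 32285 genes in the deposited matrices. Their unique molecular identifiers (UMIs, each standing for 1 captured transcript) were summed in macrophages and in stromal cells, gated on raw marker UMIs, in each of 4 single-cell libraries. The question was from which of the 2 cell sources each chemokine came, and how its level differed between lean and obese mice. The wild-type mice, also those given the high-fat diet, were C57BL6/J. The WT library came from lean mice of 10 weeks on chow. Both db/db libraries came from mice of 8 and 16 weeks that carry a mutated leptin receptor in all their cells. The methods name these mice B6.BKS(D)-Leprdb/J, and the paper does not say whether their background otherwise matches that of the WT mice. The HFD library came from mice on high-fat diet D12492i and is labelled 10 weeks, whereas the methods begin the diet at that age, so its age at harvest is not settled. All mice were fasted before harvest, each library pooled several animals, and each group had 1 library. Age, strain, genotype, diet and library therefore cannot be told apart, and no difference between groups could be tested.

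CXC chemokines are small secreted proteins that direct leukocytes through G protein-coupled receptors. Cxcl1, Cxcl2 and Cxcl5 act on Cxcr2 and recruit neutrophils, and myeloid cells and fibroblasts induce them quickly through NF-kB. Cxcl9 and Cxcl10 are induced by interferon and bring T and NK cells through Cxcr3. Cxcl12 and Cxcl13 are made mainly by mesenchymal cells, the first as a ligand of Cxcr4 and Ackr3, the second as the B cell attractant that binds Cxcr5. Cxcl14 is a tissue-resident member whose receptor is not settled, and Cxcl16 is made as a membrane-bound ligand of Cxcr6 that Adam10 and Adam17 release. In adipose tissue, macrophages and stromal progenitors are both known sources of chemokines.

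In the mouse genome (GRCm38), 6 of the 9 genes lie on chromosome 5. Cxcl1 (chr5:90891241-90893115) and Cxcl2 (chr5:90903871-90905938) are 10.8 kb apart on the plus strand, and Cxcl9 (chr5:92321347-92328079) and Cxcl10 (chr5:92346638-92348889) are 18.6 kb apart on the minus strand. RefSeq promoter sequences (GRCm38.p6) were matched for 7 of the 9 members, not for Cxcl5 and Cxcl16. The loose form of an NF-kB site (GGG, any 5 bases, then CC, searched on both strands) was found within 250 bases before the start in 6 of those 7. It was also found in 45.8% of all 32851 promoters of that length, so its presence alone sets no member apart. The promoters of both gene pairs are shown because these 4 genes are the inducible members with a promoter in the table and a level to compare. Each sequence runs from 160 to 31 bases before the start of its gene, read along the gene's strand, with each run that holds this motif on either strand in capitals:
Cxcl1, chr5:90891085-90891214, plus strand: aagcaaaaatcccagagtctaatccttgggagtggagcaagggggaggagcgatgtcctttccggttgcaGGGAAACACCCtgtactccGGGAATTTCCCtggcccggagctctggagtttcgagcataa
Cxcl2, chr5:90903739-90903868, plus strand: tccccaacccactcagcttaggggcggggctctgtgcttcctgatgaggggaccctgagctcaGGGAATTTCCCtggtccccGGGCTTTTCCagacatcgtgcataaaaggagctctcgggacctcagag
Cxcl9, chr5:92328110-92328239, minus strand: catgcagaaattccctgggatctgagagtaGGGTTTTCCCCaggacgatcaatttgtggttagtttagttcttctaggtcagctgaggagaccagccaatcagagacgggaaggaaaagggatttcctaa
Cxcl10, chr5:92348920-92349049, minus strand: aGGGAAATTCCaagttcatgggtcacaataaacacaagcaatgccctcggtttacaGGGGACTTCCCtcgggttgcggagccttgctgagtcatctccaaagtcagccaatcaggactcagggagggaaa

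Cxcl1 and Cxcl2 held the same 11 letters, GGGAATTTCCC, at 71 to 61 and at 97 to 87 bases before their starts. Cxcl10 held GGGGACTTCCC at 104 to 94 bases. The letters TTCNNNGAA, the core of an interferon-gamma-activated site, were found in the window of 1 member, Cxcl14, and in 7.02% of all promoters. These matches describe letters only, and binding was not measured.

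After the filters of the study's methods, 28887 cells were kept, 5944 from WT, 11648 and 5833 from db/db mice at 8 and 16 weeks and 5462 from HFD, at median depths of 6218.5, 3193, 2733 and 5066 UMIs. A cell was called a macrophage or stromal cell when it held at least 3 UMIs of that lineage's 6 genes and these made up at least 80% of its UMIs over all 10 gate lists. This gave 1034, 2442, 2348 and 1405 macrophages and 4352, 6866, 1192 and 1649 stromal cells in the 4 libraries. Genes that no gate used fell on the right side: Lyz2, a lysozyme of myeloid cells, was at 5840, 6662, 5279 and 6818 counts per 1000000 UMIs of the gate (CPM) in macrophages and at 60.8 to 497 in stromal cells. The db/db 16w library stood apart. It held Xist at 207 CPM against at most 0.688 elsewhere, although the methods describe male mice, and it held the most hemoglobin UMIs (10812 CPM against 41.1 to 517) and the lowest median mitochondrial share (0.799% against 4.29 to 10.5%). The HFD library also stood apart, with 68.5% of its barcodes over the mitochondrial limit (1.04 to 35.6% elsewhere), 31.3% of barcodes kept (63.6 to 89.5% elsewhere) and adipocyte genes at 97.1 CPM (6.09 to 9.15 elsewhere). In HFD 27.4% of kept cells had at least 3 UMIs of a list but no list that reached 80% (mixed cells, 7.30 to 15.2% elsewhere). The part of these differences in the chemokine levels was not tested. Every statement on db/db 16w or HFD rests on 1 library, and the libraries are given separately throughout. Pairs of libraries shared at most 97 barcodes. Where 4 values stand together without names, they are for WT, then db/db 8w, then db/db 16w, then HFD, and 3 values are for the obese libraries in the same order.

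Of the 9 members, 4 had a higher level in macrophages than in stromal cells of WT, 5 in db/db 8w, 4 at 16 weeks and 3 in HFD. Cxcl1, Cxcl2 and Cxcl16 were among them in every library, and Cxcl9, which joined in db/db 8w, did so through 1 cell. Cxcl2 was the most macrophage-sided of the 9 genes in every library by ratio of levels, and with Cxcl1 it was higher in db/db 8w and much lower at 16 weeks. In macrophages Cxcl2 was at 7712 CPM in WT, 16020 in db/db 8w, 513 at 16 weeks and 3917 in HFD. The db/db 8w level was the highest, and the db/db 16w level was below all others by a wide margin. Against WT these were log2 ratios of 1.05 (95% interval 1.04 to 1.07), -3.91 (-3.94 to -3.88) and -0.98 (-1.0 to -0.96). All intervals are exact and cover counting error only, not the spread between animals, and all ratios share the 1 WT library. Between the ages of db/db mice the Cxcl2 level was 31.2-fold lower at 16 than at 8 weeks. The macrophage level was above the stromal level by log2 6.04 in WT, 4.27 in db/db 8w, 4.25 at 16 weeks and 4.03 in HFD, and macrophages held 74.2 to 90.3% of all Cxcl2 UMIs of a library.

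Cxcl1 had the same order of libraries in macrophages but a second source. It was at 1197, 3830, 85.7 and 649 CPM in macrophages of the 4 libraries. The log2 ratios to WT were 1.68 (1.65 to 1.71), -3.80 (-3.88 to -3.72) and -0.88 (-0.93 to -0.84). In stromal cells it was at 470, 607, 65.3 and 384 CPM, so the db/db 16w library was again the lowest (log2 -2.85, -3.02 to -2.68), whereas db/db 8w and HFD were within 2-fold of WT (log2 0.37 and -0.29) over all stromal cells. In WT 60.7% of Cxcl1 UMIs lay in stromal cells and 32.1% in macrophages, and in db/db 8w these shares were 18.4 and 66.9%. Macrophages were above stromal cells in all 4 libraries, by log2 1.35, 2.66, 0.39 and 0.76 in the same order.

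Cxcl5, the third neutrophil attractant, was close to undetected. Macrophages held 0, 8, 0 and 1 of its UMIs in the 4 libraries, and stromal cells held 5, 53, 1 and 8. The stromal cells of db/db 8w, at 1.82 CPM (1.37 to 2.39), had the highest level, but 1 cell held 32 of the 53 UMIs and the level without it was 0.723 CPM, next to 0.645 in HFD without its own highest cell. Cxcl5 did not reach the mean of 5 CPM asked of a gene in the counts below.

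**Figure D1:**
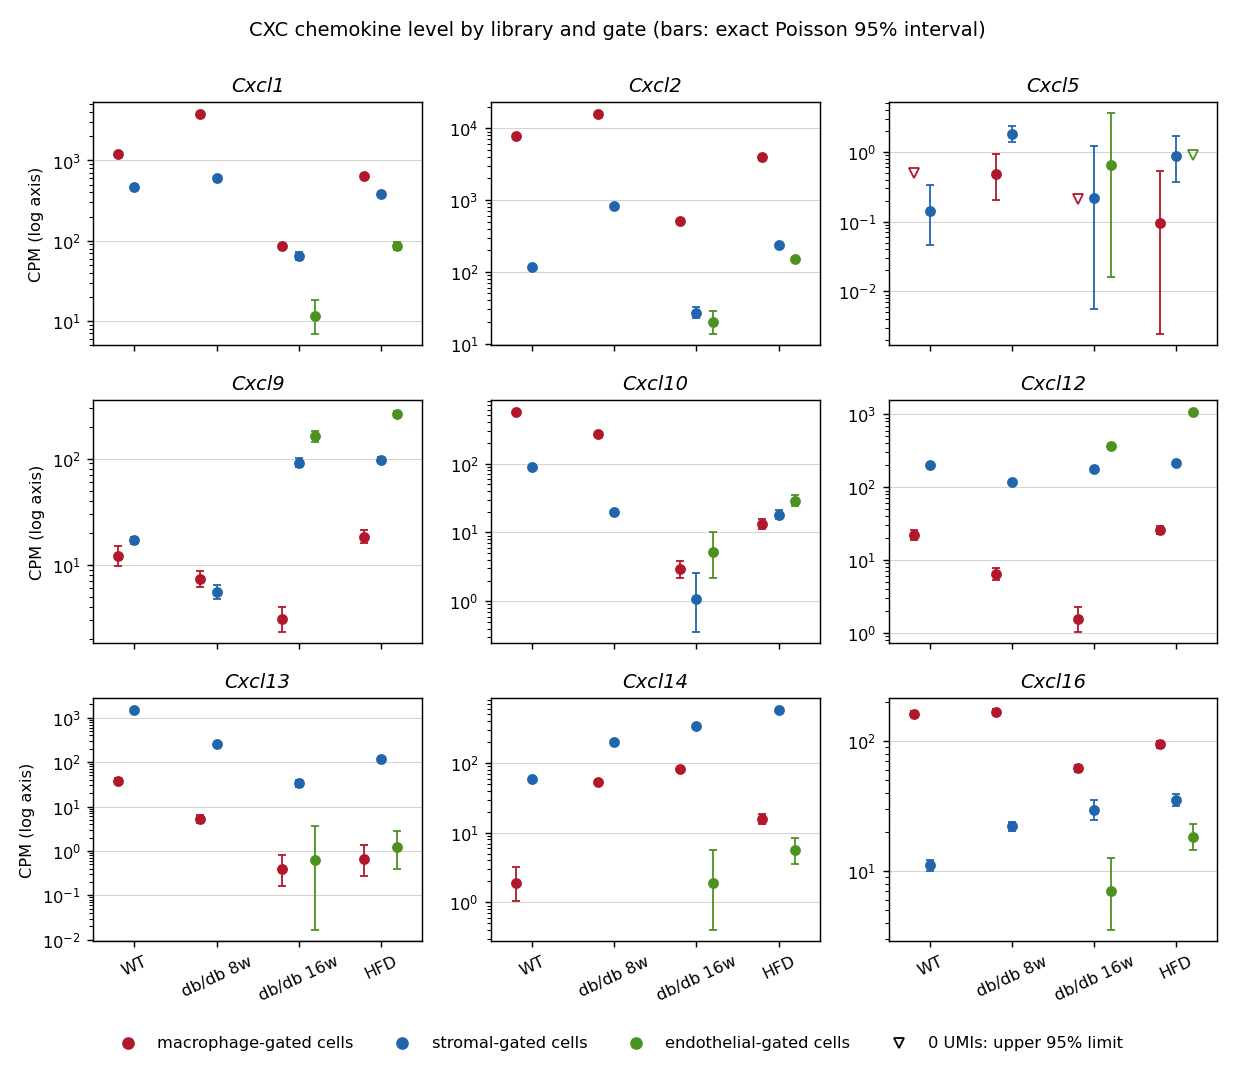
Levels of the CXC chemokines in CPM (log axis) in macrophage-gated and stromal-gated cells of the 4 libraries, with exact 95% Poisson intervals of the counts. Endothelial-gated cells are shown for db/db 16w and HFD, and open triangles mark the upper limit where 0 UMIs were counted. Cxcl2 in macrophages lies between 513 CPM (db/db 16w) and 16020 (db/db 8w), and Cxcl13 in stromal cells between 33.1 CPM (db/db 16w) and 1522 (WT).

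Cxcl10 was lower than WT in both cell types of all 3 obese libraries, although within committed stromal cells, described further on, db/db 8w and HFD did not differ from WT beyond counting error. In macrophages it was at 553 CPM in WT, 272 in db/db 8w, 2.91 at 16 weeks and 13.3 in HFD. WT was the highest and db/db 16w the lowest, at 51 UMIs in all its macrophages. The log2 ratios to WT were -1.03 (-1.09 to -0.97), -7.57 (-8.00 to -7.17) and -5.37 (-5.63 to -5.13). Stromal cells were at 88.4, 19.7, 1.09 and 18.0 CPM, that is log2 -2.17, -6.34 and -2.29 against WT, where the db/db 16w value rests on 5 UMIs. Macrophages were above stromal cells by log2 2.65 in WT, 3.79 in db/db 8w and 1.42 at 16 weeks, and below them by log2 -0.43 (-0.77 to -0.10) in HFD.

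Its neighbour Cxcl9 had another pattern. In stromal cells Cxcl9 was at 17.0 CPM in WT, 5.58 in db/db 8w, 91.4 at 16 weeks and 96.0 in HFD, so the db/db 16w and HFD libraries were above WT (log2 2.43 and 2.50) and db/db 8w was below it (-1.61). In macrophages it was at 12.2, 7.41, 3.08 and 18.4 CPM, of which 1 cell held 49 of 89 UMIs in WT and 31 of 54 UMIs in db/db 16w. Single cells carried much of this gene. In db/db 8w macrophages 1 cell held 113 of 124 UMIs and the level without it was 0.657 CPM, and in db/db 16w stromal cells 1 cell held 253 of 420 UMIs and the level without it was 36.3 CPM. The HFD stromal level was less uneven, with 141 of 894 UMIs in 1 cell and 80.9 CPM without it, and WT stromal cells, with 166 of 596 UMIs in 1 cell, were at 12.3 CPM without it. Without those cells the db/db 16w and HFD levels were above the WT level. In stromal cells with no UMI of the macrophage list the db/db 16w ratio was log2 0.79, under 2-fold. Endothelial-gated cells, numerous enough in 2 libraries (1203 in db/db 16w and 805 in HFD), held more Cxcl9 than stromal cells did, at 161 and 261 CPM (log2 0.82, 0.59 to 1.05, and 1.44, 1.31 to 1.57). There they carried 28.4 and 31.9% of all Cxcl9 UMIs, and mixed cells carried 35.1% in HFD.

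Cxcl13 was almost wholly stromal and was highest in WT. Stromal cells were at 1522 CPM in WT, 257 in db/db 8w, 33.1 at 16 weeks and 117 in HFD, and they held 94.4 to 98.6% of the gene's UMIs in each library. The 3 obese libraries were below WT by log2 -2.57 (-2.60 to -2.53), -5.52 (-5.76 to -5.29) and -3.70 (-3.79 to -3.62), and db/db 16w was 7.75-fold below db/db 8w. Macrophages were at 38.4, 5.26, 0.399 and 0.667 CPM, which is 2.52, 2.05, 1.21 and 0.572% of the stromal level.

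Cxcl12, the Cxcr4 ligand, had the steadiest stromal level of the members past the level filter. It was at 204 CPM in WT, 116 in db/db 8w, 178 at 16 weeks and 216 in HFD, and no ratio to WT reached 2-fold (log2 -0.81, -0.19 and 0.08). Endothelial cells were above stromal cells where they could be measured, at 363 CPM in db/db 16w and 1065 in HFD (log2 1.02 and 2.30). Of all Cxcl12 UMIs, stromal cells held 96.6% in WT and 19.1% in HFD, where endothelial cells held 41.0% and mixed cells 37.2%. The WT library had 9 endothelial-gated cells and the HFD library 805. Macrophages were at 22.1, 6.39, 1.54 and 25.7 CPM, below stromal cells by log2 -6.86 to -3.07.

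Cxcl14 was the 1 member above WT by over 2-fold in both cell types of all 3 obese libraries. Stromal cells were at 58.4 CPM in WT, 203 in db/db 8w, 340 at 16 weeks and 574 in HFD. The log2 ratios to WT were 1.80 (1.73 to 1.87), 2.54 (2.44 to 2.64) and 3.30 (3.23 to 3.37). In macrophages it was at 1.92 CPM in WT, from 14 UMIs, and at 53.5, 82.0 and 15.7 in the 3 obese libraries. These were log2 ratios of 4.8 (4.05 to 5.68), 5.42 (4.67 to 6.29) and 3.03 (2.25 to 3.94). In WT and HFD the macrophage level was 3.29 and 2.74% of the stromal level, inside the range of stromal genes in macrophages given further on. The macrophage share of the gene's UMIs was 0.674% in WT, 12.4% in db/db 8w, 45.7% at 16 weeks and 2.82% in HFD. Stromal cells stayed above macrophages in every library, with log2 ratios of the macrophage to the stromal level of -4.93, -1.93, -2.05 and -5.19.

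Cxcl16, the membrane-bound member, was on the macrophage side. The gap between the cell types was narrower in each obese library than in WT, most so in db/db 16w and HFD. Macrophages were at 163 CPM in WT, 169 in db/db 8w, 62.0 at 16 weeks and 94.7 in HFD. WT and db/db 8w did not differ beyond counting error (log2 0.06, -0.04 to 0.16), and db/db 16w was lower (-1.39, -1.51 to -1.27). Stromal cells were at 11.1, 22.3, 29.8 and 35.6 CPM, which is log2 1.0 (0.82 to 1.19), 1.42 (1.13 to 1.71) and 1.68 (1.46 to 1.89) against WT. The log2 ratio of the macrophage to the stromal level was 3.87 in WT, 2.93 in db/db 8w, 1.06 at 16 weeks and 1.41 in HFD.

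Counted over the list, 8 of the 9 members had a mean of at least 5 CPM in each cell type, all but Cxcl5. In db/db 8w macrophages 3 were at least 2-fold above WT (Cxcl1, Cxcl2, Cxcl14), where 6.63% of the 9094 genes past the same filter were, and 3 were as far below (Cxcl10, Cxcl12, Cxcl13), against 4.95% of genes. In db/db 16w macrophages 1 was above (Cxcl14, against 19.4% of genes) and the other 7 were below (against 23.7%). Of these 7, Cxcl12 and Cxcl13 were higher in stromal cells than in macrophages of every library. In HFD macrophages 1 was above (Cxcl14, against 14.8%) and 2 were below (Cxcl10 and Cxcl13, against 10.1%). The median log2 ratio of the 8 members was -0.33, -3.82 and -0.83, beside 0.03, -0.11 and 0.17 over all 9094 genes. With 8 genes, a single member is a large share, and these counts describe the list without a test.

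In stromal cells of db/db 8w 3 members were above WT (Cxcl2, Cxcl14, Cxcl16, against 6.44% of 10294 genes) and 3 were below (Cxcl9, Cxcl10, Cxcl13, against 2.35%). In db/db 16w 3 were above (Cxcl9, Cxcl14, Cxcl16, against 13.5%) and 4 were below (Cxcl1, Cxcl2, Cxcl10, Cxcl13, against 14.7%). In HFD 4 were above (Cxcl2, Cxcl9, Cxcl14, Cxcl16, against 10.8%) and 2 were below (Cxcl10 and Cxcl13, against 6.63%). The median over the 8 members was -0.22, -1.16 and 0.56, beside 0.03, -0.02 and 0.08 over all genes. Cxcl2 in db/db 8w macrophages (1.05) and HFD stromal cells (1.03), Cxcl10 in db/db 8w macrophages (-1.03) and Cxcl16 in db/db 8w stromal cells (1.0) lay just past the fold, and Cxcl2 in HFD macrophages (-0.98) just short of it.

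**Figure D2:**
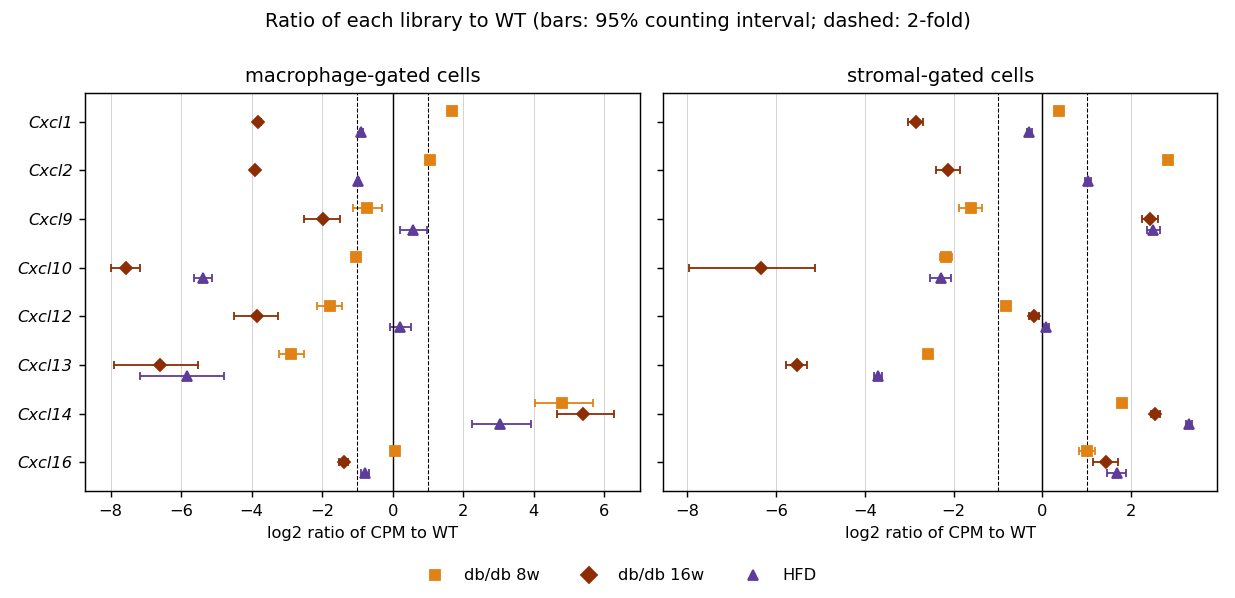
Log2 ratio of each member's level to that of the WT library in macrophage-gated and stromal-gated cells of the 3 obese libraries, with exact 95% counting intervals. Cxcl14 lies above 0 in all 6 comparisons and Cxcl10 and Cxcl13 lie below 0 in all of them, whereas Cxcl1, Cxcl2 and Cxcl9 change sides.

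RNA of the other lineage was present in both gates, and differed between libraries. Stromal cells held macrophage genes that no gate used (Lyz2, Ctss, Tyrobp, Il1b, Ccl3, Ccl4) at 1.03 to 1.21% of their macrophage level in WT. In db/db mice this range was 5.25 to 6.21% at 8 weeks and 1.29 to 8.29% at 16 weeks, and in HFD it was 6.88 to 12%. Stromal Cxcl2 was at 1.52, 5.19, 5.26 and 6.11% of its macrophage level. It thus lay just above that range in WT, inside it at 16 weeks and just below it in db/db 8w and HFD. The part of macrophage RNA in the higher stromal level of db/db 8w and HFD (831 and 239 CPM, against 117 in WT) was not tested. Stromal Cxcl1, at 15.8 to 76.2%, and stromal Cxcl16, at 6.84 to 48.1%, were above the range in every library. In stromal cells with no UMI of the macrophage list (2536, 3702, 1060 and 566 cells), Cxcl2 was at 62.3, 256, 4.56 and 98.0 CPM, less than over all stromal cells in each library. Cxcl1 was there at 412, 438, 68.7 and 429 CPM and Cxcl16 at 10.3, 18.2, 30.6 and 39.6, each within 2-fold of the level over all stromal cells. Cxcl9 was at 24.6, 4.93, 42.4 and 110 CPM in those cells.

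In the other direction, macrophages held the stromal genes Serping1, Gsn, Mfap5, Clec3b and Igfbp6 at 1.89 to 3.65% of their stromal level in WT. The range was 0.87 to 2.23% in db/db mice at 8 weeks, 0.05 to 1.75% at 16 weeks and 0.811 to 2.90% in HFD. Macrophage Cxcl14 was at 3.29 and 2.74% in WT and HFD, inside that range, and at 26.3 and 24.1% in both db/db libraries, above it. Macrophage Cxcl13 was inside the range in db/db 8w, WT and db/db 16w and below it in HFD. Macrophage Cxcl12 was at 10.8, 5.50, 0.863 and 11.9% of its stromal level, inside the range in db/db 16w and above it elsewhere. The part of stromal RNA in the macrophage levels of Cxcl12 and Cxcl13 was not tested. In macrophages with no UMI of the stromal list, Cxcl14 was at 50.9 CPM in db/db 8w (298 cells), 82.2 at 16 weeks (2018 cells) and 17.6 in HFD (211 cells). Only 13 of the 1034 WT macrophages held no such UMI, with 0 UMIs of Cxcl14, which allows up to 61.1 CPM at 3 counts, so a ratio to WT could not be read in those cells. The db/db levels of Cxcl14 were thus close to those over all macrophages (53.5 and 82.0 CPM), while its fold over WT rests on the WT gate.

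**Figure D3:**
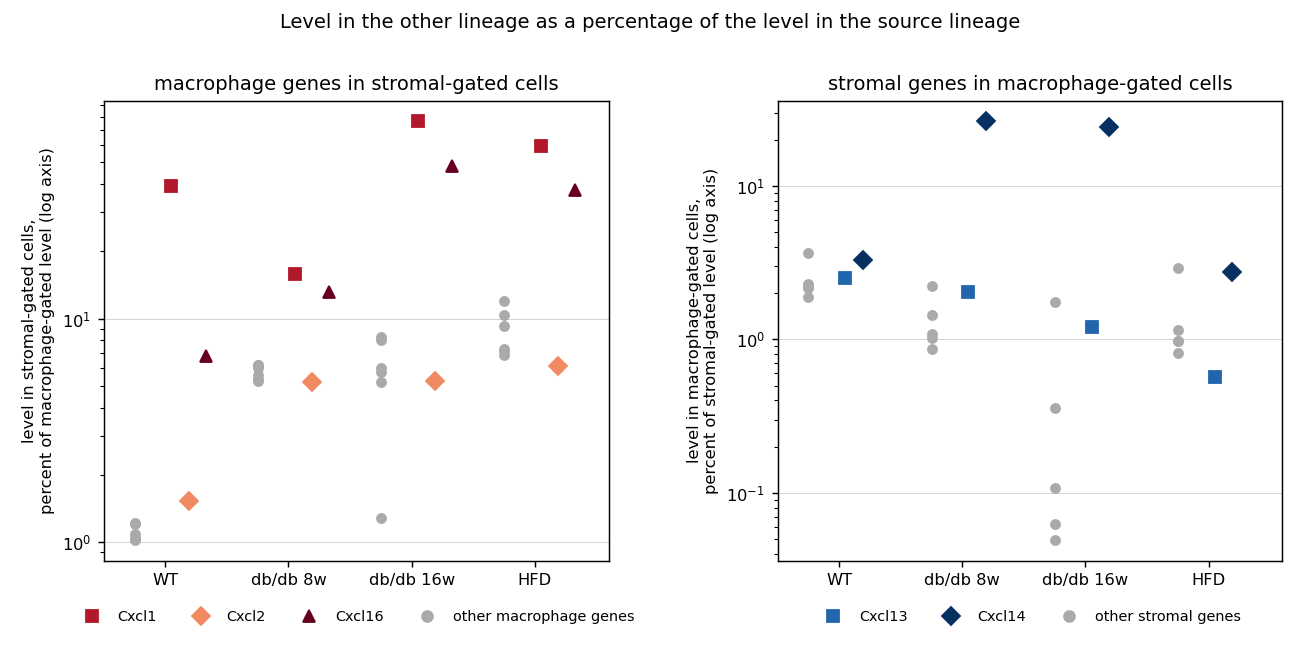
Level in stromal cells as a percentage of the macrophage level (left, log axis) and level in macrophages as a percentage of the stromal level (right, log axis) in each library, for lineage genes that no gate used (grey) and for 5 members (coloured). Cxcl14 in macrophages of both db/db libraries, at 26.3 and 24.1%, lies above the stromal genes, which reach at most 2.23% there, whereas stromal Cxcl2 lies near the macrophage genes.

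Subsets gated on marker lists without any member showed where in each lineage the genes lay. Lipid-associated macrophages (LAM: Trem2, Gpnmb, Spp1, Cd9, Mmp12) made up 1.84% of macrophages in WT, 29.6% in db/db 8w, 73.0% at 16 weeks and 80.6% in HFD, and perivascular macrophages (PVM: Lyve1, Folr2, Cd163, Cbr2, Cd209f) 92.3, 59.4, 14.9 and 6.90%. Among macrophages Cxcl14 was higher in LAM than in PVM of WT and of both db/db libraries. It was at 30.4 CPM in LAM of WT (7 UMIs in 19 cells), 102 in db/db 8w, 90.8 at 16 weeks and 16.5 in HFD, against 1.05, 5.21, 3.11 and 6.93 CPM in PVM. The log2 ratio of LAM to PVM was 4.85 (3.11 to 6.59) in WT, from 7 UMIs in each subset. This ratio was 4.30 (3.83 to 4.80) in db/db 8w and 4.87 (3.51 to 6.75) at 16 weeks. In HFD, from 153 and 3 UMIs, it was 1.25 (-0.32 to 3.54), which did not differ from 0 beyond counting error. Within LAM the ratio to WT was log2 1.75 (0.70 to 3.07) in db/db 8w, 1.58 (0.53 to 2.89) at 16 weeks and -0.88 (-1.96 to 0.46) in HFD, each smaller than the ratio over all macrophages. The LAM share was higher in all 3 obese libraries, as was macrophage Cxcl14, but HFD had the highest LAM share and the lowest Cxcl14 level of the 3.

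Cxcl1 and Cxcl2 kept their order of libraries within both subsets. PVM were at 1156, 2299, 80.8 and 411 CPM of Cxcl1 in the 4 libraries, and LAM at 1486, 5296, 86.4 and 673. For Cxcl2, PVM were at 7166, 12880, 584 and 3177 CPM and LAM at 14121, 18814, 495 and 3916. Macrophages with at least 2 UMIs of the inflammatory list (Il1b, Ccl3, Ccl4, Tnf, Nlrp3) were 57.9, 73.5, 22.8 and 54.9% of macrophages. They held Cxcl2 at 10464, 18292, 1058 and 4898 CPM, against 1115, 2230, 320 and 2501 in the rest, and Cxcl10 at 767, 311, 3.30 and 17.3 CPM, against 41.0 in WT and 2.79 at 16 weeks in the rest. The lower level of both genes in db/db 16w than in WT thus held on either side of that line.

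Stromal subsets shifted as strongly. Progenitor-gated cells (Pi16, Dpp4, Sema3c, Cd55, Anxa3) were 64.3, 25.7, 2.43 and 10.6% of stromal cells in the 4 libraries, and committed cells (Col15a1, Col4a1, Col4a2, Pparg) 9.81, 37.4, 85.5 and 73.0%. Cxcl14 was at 258, 321, 358 and 665 CPM in committed cells, against 1.67, 6.49, 0 and 28.8 in progenitors. It was not limited to committed cells: the few fibroblast-gated cells (Cilp, Eln, Apod, Gdf10; 105, 448, 38 and 34 cells) were at 218, 266, 393 and 575 CPM. Within committed cells its log2 ratio to WT was 0.31, 0.47 and 1.37, smaller than the 1.80, 2.54 and 3.30 over all stromal cells. Cxcl13 was lower than WT within both subsets: committed cells were at 1843, 334, 23.2 and 104 CPM and progenitors at 1338, 74.7, 29.9 and 145.

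Cxcl10 was in committed cells at 21.2, 16.6, 1.20 and 17.1 CPM, with log2 ratios to WT of -0.35 (-0.74 to 0.05) in db/db 8w, -4.15 at 16 weeks and -0.31 (-0.74 to 0.12) in HFD, so that the first and the last were smaller than over all stromal cells. Cxcl1 was there at 235, 540, 68.3 and 381 CPM, and its log2 ratio of 1.20 (1.09 to 1.31) in db/db 8w was past 2-fold, unlike the 0.37 over all stromal cells. Cxcl9 and Cxcl16 also differed from WT within committed cells. Cxcl9 was there at 31.2, 8.60, 99 and 102 CPM (log2 -1.86, 1.66 and 1.70 against WT), and Cxcl16 at 17.5, 23.4, 32.6 and 38.5 CPM (0.42, 0.90 and 1.14). Cxcl12 was highest in committed cells of WT, at 643 CPM, and was lower in those of the obese libraries (141, 173 and 218 CPM, log2 -2.19, -1.89 and -1.56), although its level over all stromal cells was within 2-fold of WT. Activated stromal cells, gated on Has1, Ptx3, Tnfaip6 and Has2, were 86 in WT, 38 in db/db 8w, 1 at 16 weeks and 0 in HFD. They were at 2175 CPM of Cxcl1 in WT and 2640 in db/db 8w.

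**Figure D4:**
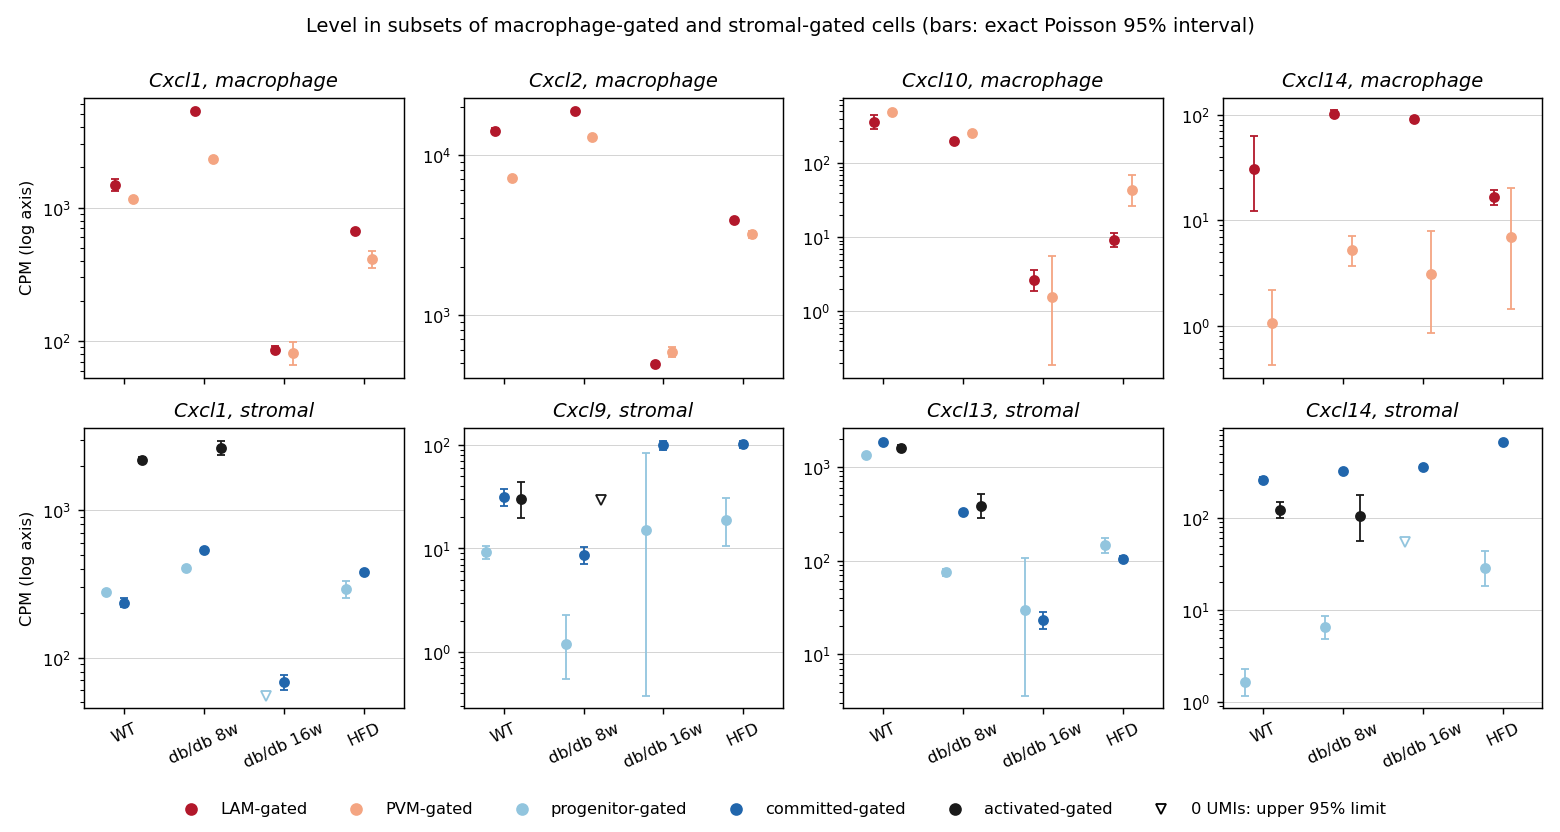
Levels in CPM (log axis) of selected members in macrophage subsets (LAM, PVM) and stromal subsets (progenitor, committed, activated) of the 4 libraries, with exact 95% Poisson intervals and open triangles for the upper limit where 0 UMIs were counted. Cxcl14 is at 16.5 to 102 CPM in LAM against 1.05 to 6.93 in PVM, and at 258 to 665 CPM in committed cells against at most 28.8 in progenitors.

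The share of cells with a UMI of a member was compared at an equal depth of 1000 UMIs, drawn at random from every cell. Cells of lower depth, 5, 74, 80 and 0 macrophages and 115, 1431, 112 and 1 stromal cells, did not enter. Of the endothelial cells, 573 did not enter in db/db 16w, which left 630, and 3 did not in HFD. For Cxcl14 it was 0% in WT macrophages (0 of 1029 cells, which allows up to 0.292% at 3 counts), 2.70% in db/db 8w, 6.17% at 16 weeks and 1.28% in HFD. Unthinned, these shares were 0.967, 12.5, 23.1 and 8.75%. In T and NK cells, which should lack the gene, it was found in 0 of 32, 0 of 99, 0 of 45 and 1 of 32 cells, where 0 allows up to 9.38, 3.03 and 6.67% at 3 counts, and in endothelial cells in 0.317% (db/db 16w) and 0.499% (HFD), at median depths of 1025 and 4587 UMIs against 5938 and 5909 in macrophages. The T and NK cells were too few to set a background below the macrophage share in any library. The db/db 16w share (5.22 to 7.24%) was above that of endothelial cells (0.0385 to 1.14%), while in HFD the intervals of macrophages (0.761 to 2.02%) and endothelial cells (0.136 to 1.27%) overlapped.

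For Cxcl2 the share in macrophages was 61.6, 79.7, 14.9 and 79.0%, far above that in T and NK cells (9.38, 14.1, 0 and 15.6%). In stromal cells it was 5.99, 24.5, 0.463 and 14.1%. The WT and HFD shares were not above the T and NK share, from 3 and 5 of 32 cells, nor in HFD above the 14.5% of endothelial cells. At 16 weeks the stromal share was not above the 1.11% of endothelial cells. Nor was it above the 6.67% that 0 of 45 T and NK cells allows at 3 counts. Cxcl13 was found in 40.8, 9.33, 2.69 and 7.22% of stromal cells and in 0 T and NK cells of any library. A count of 0 allows up to 9.38, 3.03, 6.67 and 9.38% at 3 counts, more than the stromal share of Cxcl13 in db/db 16w and HFD. For Cxcl9 the thinned share was 2.04% of stromal cells in db/db 16w and 5.16% in HFD, against 11.6 and 19.0% of endothelial cells and 0 T and NK cells. Both stromal shares were below what 0 T and NK cells allow at 3 counts (6.67 and 9.38%).

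The share with Cxcl1 was 31.8, 57.6, 4.94 and 31.3% in macrophages and 15.2, 22.4, 3.15 and 20.8% in stromal cells, against 3.12, 6.06, 0 and 3.12% of T and NK cells. Macrophages were thus above that background in WT, db/db 8w and HFD, and stromal cells in db/db 8w and HFD. In WT the interval of T and NK cells (0.0791 to 16.2%, from 1 of 32 cells) covered the stromal share. Cxcl10 was found in 14.9, 13.2, 0.132 and 1.07% of macrophages, and the HFD share was below the 9.38% (3 of 32) of T and NK cells there. Cxcl16 was found in 15.2, 17.2, 8.02 and 9.40% of macrophages, in 1.23, 1.66, 2.96 and 3.88% of stromal cells and in 0 T and NK cells. A count of 0 there allows up to 9.38, 3.03, 6.67 and 9.38% at 3 counts, more than the stromal share of Cxcl16 in each library. That stromal share was above the share of endothelial cells, which was 0.794% in db/db 16w and 1.62% in HFD. Cxcl12 was found in 14.2, 9.86, 15.1 and 17.7% of stromal cells and in 57.2% of endothelial cells of HFD.

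Genes of the pathways that induce these chemokines were given by lists chosen for their role. Of 10 genes of NF-kB feedback and co-induction, all 10 passed the level filter in macrophages. Of these, 1 in db/db 8w, all 10 at 16 weeks and 9 in HFD were at least 2-fold below WT and 0 were above. In stromal cells 2, 9 and 7 of the 10 were below and 0, 0 and 1 above. In macrophages Zfp36, which destabilises chemokine mRNAs, was at 5412 CPM in WT and 2444, 360 and 408 in the 3 obese libraries. Nfkbia, the inhibitor of NF-kB, was there at 3369, 3678, 287 and 821, Nfkbiz, its nuclear relative, at 1547, 793, 28.0 and 276, and the monocyte attractant Ccl2 at 1592, 1328, 745 and 94.1. In db/db 8w macrophages Cxcl1 and Cxcl2 were at least 2-fold above WT, and 0 of the 10 list genes were. The part of NF-kB in the levels of Cxcl1 and Cxcl2 was not tested.

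The interferon-gamma list (12 genes) had 10 past the filter in macrophages, of which 5, 9 and 5 were below WT in the 3 obese libraries, and 0, 0 and 1 above. Irf1, a transcription factor of this response, was at 363, 299, 33.7 and 71.6 CPM in macrophages. In stromal cells 9 of the 12 passed, with 6, 5 and 2 below and 1 above in each library. The GTPase Iigp1 was at 149, 20.6, 23.9 and 191 CPM in stromal cells and at 310 and 1050 CPM in endothelial cells of db/db 16w and HFD. Where stromal Cxcl9 was higher, at 16 weeks and in HFD, stromal Irf1 had log2 ratios to WT of -2.61 and -1.90. The median log2 ratio of the 9 stromal list genes was -1.05 at 16 weeks and -0.26 in HFD. Stromal Iigp1 was below its WT level at 16 weeks and above it in HFD. Whether interferon had a part in the stromal Cxcl9 levels was not tested.

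Immediate-early and heat-shock genes, known to respond to tissue digestion, differed between libraries too. In macrophages 5, 10 and 7 of 10 were below WT in the 3 obese libraries, and in stromal cells 0, 9 and 5, with 0, 0 and 1 above. The heat-shock gene Hspa1a was at 3786, 1733, 574 and 51.7 CPM and the AP-1 subunit Junb at 4035, 2478, 782 and 1198 in macrophages. More of these genes were below WT in macrophages of db/db 16w and HFD, where Cxcl10 was lowest, and their part in the levels of Cxcl1, Cxcl2 and Cxcl10 was not tested.

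**Figure D5:**
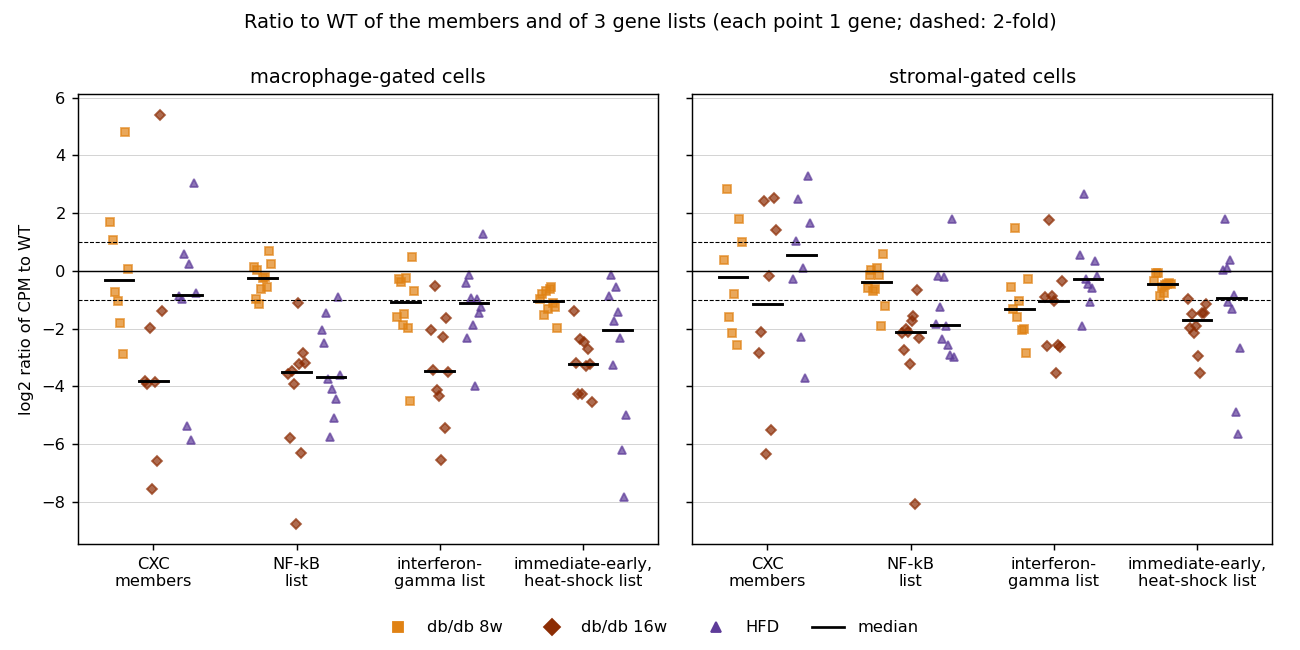
Log2 ratio to WT of the members and of the genes of the NF-kB, interferon-gamma and immediate-early and heat-shock lists in macrophage-gated and stromal-gated cells, with 1 point per gene past the level filter. In macrophages the list medians in db/db 16w are -3.50, -3.47 and -3.22.

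Few receptors of the members passed the level filter. Of 8 receptor genes, 1 passed it in macrophages (Cxcr4) and 2 in stromal cells (Ackr1 and Ackr3), of which 0, 2 and 2 were at least 2-fold below WT. Cxcr4, the Cxcl12 receptor, was at 81.0, 95.1, 54.8 and 76.7 CPM in macrophages. Ackr3, which scavenges Cxcl12, was at 283 CPM in WT stromal cells and at 148, 18.7 and 70.1 in the 3 obese libraries, that is log2 -0.93, -3.92 and -2.01. Cxcr2 was found at 703 CPM in the 93 neutrophil-gated cells of db/db 8w, which also held Cxcl2 at 4329 CPM. Cxcr3 and Cxcr6 were each at 41.2 CPM in the 38 T and NK cells of db/db 8w, and Cxcr5 had at most 23 UMIs in any library.

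Of the 4 proteases, all 4 passed the filter in macrophages and 2 were below WT in each obese library, while 3 passed in stromal cells and 1 was below. Dpp4, which trims the start of several of these chemokines, was at 536, 229, 17.0 and 111 CPM in stromal cells and is itself a progenitor marker. Mmp9 was at 140, 23.7, 7.53 and 3.34 CPM in macrophages. Adam10 and Adam17, which release Cxcl16, were within 2-fold of WT in macrophages of each obese library, at 60.9 to 88.9 and 48.5 to 128 CPM. Of the other ligands, the platelet-factor gene Pf4 was at 2318, 2472, 2556 and 720 CPM in macrophages. Cxcl3, a further neutrophil attractant, followed the order of Cxcl2, at 28.0, 67.2, 0.228 and 2.0 CPM.

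The genes most like each member over the 10 class sums of at least 100 cells, among 8808 genes, were ranked by Pearson correlation of log2 levels, as a description. For Cxcl2 they were Cd83 (0.982), Lyz1 (0.977) and Slfn2 (0.972), for Cxcl10 Birc3 (0.976), Junb (0.961) and Cited2 (0.957), and for Cxcl13 Pygb (0.992), Ptx3 (0.988) and Osr2 (0.986). For Cxcl14 they were Ckap4 (0.955), Timp1 (0.954) and P4hb (0.937), for Cxcl12 Rcbtb1 (0.989), Mtus1 (0.984) and Fam160b1 (0.982), and for Cxcl16 Ly96 (0.979), Slc7a8 (0.977) and Ccl6 (0.973). Cxcl1 was nearest Lsm10 (0.941), Lactb2 (0.939) and Slc11a2 (0.927), and Cxcl9 nearest Pias2 (0.965) and St6galnac2 (0.957). Class sums of 1 library share depth and free RNA, so these are not independent points. By Spearman correlation the first gene stayed first for 2 of the 8 members, and Pias2 for Cxcl9 and Fam160b1 for Cxcl12 ranked 91 and 301.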

How the data were processed

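Stromal vascular cells of brown adipose tissue were profiled by 10x single-cell 3′ RNA sequencing in 4 libraries. The authors deposited raw UMI counts per gene and barcode, made with Cell Ranger on mm10. The submitters' processing notes list version 7.1.0 and the matrix header gives 6.0.0. The methods mention cell sorting without a gate. Cells were kept with more than 250 and fewer than 6000 genes, more than 500 and fewer than 30000 UMIs, and under 15% mitochondrial UMIs, as in the methods.

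Levels are summed UMIs per 1000000 UMIs of a gate. With 1 library per group no test was possible, so levels have exact Poisson, shares exact Clopper-Pearson and ratios exact conditional binomial 95% intervals, for counting error only. Genes of mean level under 5 CPM over the libraries were left out of counts, and a level of 0 was set to 3 counts for bounds. Subsets needed at least 2 UMIs and 60% of the subset lists. Capture is at the 3′ end, so levels were compared between cells for 1 gene, not between genes. No doublet was removed from the values given. Scores by Scrublet (scanpy 1.11.5) served as an alternative. Named genes were all members, up to 4 genes of each pathway list with the highest level in any gate, the members' receptors, and 3 genes most like each member, on log2(CPM + 10). A few genes that this rule names are not reported here. Members and lists were chosen with earlier results of these data known. T and NK cells for the background were gated at a share of 50%, chosen after seeing the data, since 3 WT cells passed at 80%. Cxcl11 and protein sequences were not used here. Scripts (Python 3.11.15, numpy 2.4.6, scipy 1.17.1) were tested on simulated data. Coordinates are from GENCODE on GRCm38.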

Additional observations from a re-analysis of the deposited data

Results flagged for a closer look

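Each of the following differences was noted because a member lay on opposite sides of WT, past 2-fold on both, in different libraries or cell types, and none of them was tested. In macrophages Cxcl1 was above WT in db/db 8w (log2 1.68) and below it at 16 weeks (-3.80). Cxcl2 was likewise at 1.05 and -3.91 in macrophages. In macrophages with no UMI of the stromal list the db/db 8w ratios fell under 2-fold. They were 0.55 for Cxcl1 and 0.39 for Cxcl2, against 13 WT cells. In stromal cells Cxcl2 was at 2.83 in db/db 8w, -2.12 at 16 weeks and 1.03 in HFD, with macrophage genes there at up to 6.21, 8.29 and 12% of their macrophage level. The HFD ratio stayed past 2-fold in only 4 of 11 alternatives, and the lowest was 0.29. Stromal Cxcl9 was at -1.61 in db/db 8w, 2.43 at 16 weeks and 2.50 in HFD, where 1 cell held 253 of the 420 UMIs of db/db 16w. In db/db 16w Cxcl9 was lower than WT in macrophages (-1.99) and higher in stromal cells (2.43). Both fell under 2-fold in an alternative, the first to -0.70 with a gate of 2 UMIs and 60%, the second to 0.79 in cells with no UMI of the macrophage list, and 1 macrophage held 49 of 89 UMIs in WT and 31 of 54 in db/db 16w. Cxcl16 was also lower in macrophages (-1.39) and higher in stromal cells (1.42) of db/db 16w. Each of these Cxcl16 ratios fell under 2-fold in an alternative. The macrophage ratio was -0.94 with the mean over cells, and the stromal ratio 0.36 with unscaled mean UMIs per cell.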

How the results depend on the processing

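Of the 36 ratios to WT past 2-fold, 22 stayed past it under all 11 alternatives that gave a ratio, and 34 kept their sign. Under the 10 alternatives other than the gate without any UMI of the other lineage, 27 stayed past it. Leaving out the cell with the most UMIs of the member was not planned. Nor was the gate without any UMI of the other lineage, which was added after seeing the data. That gate left 13 WT macrophages, so Cxcl14 there was set to 3 counts, which gave log2 ratios in macrophages of -0.26 for db/db 8w and -1.80 for HFD (4.8 and 3.03 otherwise). The count of members above WT in macrophages became 0 in the 3 obese libraries, and the count below it became 7 in HFD. In HFD macrophages 2 members instead of 1 were above WT, Cxcl9 joining Cxcl14, with every deposited barcode, with no mitochondrial limit, with the highest Scrublet scores removed, and without the cell with the most UMIs of the member. With a gate of 5 UMIs and 95%, 5 instead of 2 were below it. With unscaled mean UMIs per cell, 1 instead of 3 members was above WT in db/db 8w stromal cells. With every deposited barcode, 1 receptor gene instead of 0 was below WT in macrophages, and 1 instead of 0 above it in stromal cells, of each obese library. Median-of-ratios scaling moved the median of all genes in db/db 16w macrophages from -0.11 to 0.14 and in HFD from 0.17 to 0.06, and changed no count of members by over 1.5 times. Depth limits Cxcl5 (at most 53 UMIs in a gate) and Cxcl10 in db/db 16w stromal cells (5 UMIs). The planned description of protein sequences was not run. Leaving out a library of a group could not be run with 1 library per group. No paired analysis was possible because each group has 1 library.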
